A study of Homo sapiens with 6 samples.

Results

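The comparison set gene expression with the ZFX hairpin labelled 381 against gene expression with the ZFX hairpin labelled 1012, in the same 2 leukemia cell lines. Its members were the 4 arrays of silenced cells among the 6 arrays of the series, 1 array per hairpin in Jurkat cells and 1 per hairpin in K562 cells, and the hairpins were paired within each line. The other 2 arrays, 1 control per line, were used only to show which hairpin departed from control. Jurkat cells derive from a T cell leukemia, and K562 cells from a blast crisis of chronic myeloid leukemia and carry erythroid traits. Silenced cells had been infected with a lentiviral vector carrying a short hairpin RNA against ZFX, sorted by fluorescence and kept in the culture conditions of the parental cells. Control cells are described in the protocol as carrying a control hairpin vector and in the sample labels as normal cells, so whether they shared the infection and sorting is not settled. Each array was hybridised with RNA of 3 replicate cultures pooled in equal amounts, and the spread between those cultures was not measured. The labels give both hairpins the same number although the series' design names 2 of them, and they are therefore called by their identifiers 381 and 1012.

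A short hairpin RNA is cut by the cell into a small guide RNA, which directs Argonaute proteins to messenger RNAs that pair with it. The full-length match destroys the intended messenger RNA, and shorter matches to other messenger RNAs can lower those as well, which is why studies of this kind use more than one hairpin against a gene. ZFX is an X-linked zinc finger transcription factor that binds near the starts of many genes and is needed for the self-renewal of blood stem cells. A gene that responds to the loss of ZFX is expected to move the same way with both hairpins, so a comparison between the hairpins asks in what they differed. The hairpin sequences were not used here, and matches between them and the genes named were not examined.

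ZFX itself was below control on all 4 silenced arrays. Its brightest probe set had a deposited signal of 498 in the Jurkat control, 337 with hairpin 381 and 119 with hairpin 1012, and of 719 in the K562 control, 236 with 381 and 289 with 1012. On this probe set the lower level was with hairpin 1012 in Jurkat cells and with hairpin 381 in K562 cells. The other probe sets were also lower with 1012 in Jurkat cells, but by 0.09, 0.11 and 0.21 log2 units, against 1.38 on the brightest. In K562 cells 2 of the 4 were lower with 1012, by 0.29 and 0.93 log2 units, and 2 with 381. The order in K562 cells was therefore not settled. The mean log2 difference, hairpin 381 minus hairpin 1012, was 0.55 ± 0.38 (SE, 2 pairs), with a 95% interval from -0.32 to 1.43 and an adjusted p of 0.567 in limma. All 4 ZFX probe sets were below control on every silenced array, at 35.2% to 67.6% of control with 381 and 23.8% to 51.8% with 1012 in Jurkat cells, and at 21.5% to 56.4% with 381 and 19.8% to 40.2% with 1012 in K562 cells. The ranges of the hairpins overlapped in both lines. The interval of the difference does not show that the hairpins silenced ZFX alike. In a fit with the controls, leaving out either silenced Jurkat array turned the sign of the ZFX difference, to -0.11 without the array of 381 and -0.023 without that of 1012.

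The arrays matched their labelled lines. All 8 Jurkat markers, among them the CD3 chains and LCK, were higher on each Jurkat array than on each K562 array, with summed signals of 58624 to 62283 against 1097 to 1824. Of the 6 K562 markers measured, 4 were higher on all K562 arrays and 1, TAL1, was higher on all Jurkat arrays. The 2% trimmed mean signal was 500.1 on every array. Over all genes tested, the array of 381 and that of 1012 had r = 0.983 in Jurkat cells and r = 0.980 in the K562 line, as a description. Some technical measures moved with the hairpin in both lines. The 24 probe sets for poly-A RNAs, which are spiked into the sample before labelling, had a median log2 difference of -0.35 (381 minus 1012) in both lines, while the 18 hybridisation controls differed by 0.0050 and 0.063. The ACTB signal ratio of the 3′ to the 5′ probe set, a sign of RNA quality, was 3.31 with 381 and 3.07 with 1012 in Jurkat and 3.10 and 2.91 in K562 cells on the log2 scale, while that of GAPDH was 0.20 and 0.23 in Jurkat and 0.36 and 0.28 in K562 cells. The part of these shifts in the results that follow was not tested.

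Between the hairpins, 59 of 11785 genes (0.501%) passed limma's test at an adjusted p under 0.05. Of these, 21 (0.178% of genes tested) were higher with hairpin 381 and 38 (0.322%) were higher with hairpin 1012. All 59 differed in the same direction in both lines, which the test favours, because opposite differences leave a small mean and a large error. At an unadjusted p under 0.05 there were 1587 genes (13.5%), 861 (7.31%) higher with 381 and 726 (6.16%) higher with 1012. The differences of the called genes had sizes from 0.52 to 1.80 on the log2 scale, against a median standard error of 0.20 over all genes. The called genes were bright, with a median signal of 2792 over the 4 arrays against 631 for all genes tested. An exception was MBP, higher with 1012, which read 9.01 with 381 and 49.5 with 1012 in K562 cells. Its K562 difference therefore depends on the constant added before the logarithm. With the control arrays also fitted, MBP did not pass (limma adjusted p = 0.0867). These p-values set the mean hairpin difference against a variance with 1 residual degree of freedom, from how far the 2 lines disagreed. A further 7.04 degrees of freedom came from the prior, which is set by genes of similar signal. On simulated data of this design the share of false calls exceeded the nominal level in most runs. The call depended on the fit: 0 genes passed with the mean of a gene's probe sets, with median centring of each array, without the intensity trend or without pairing the lines, whereas 110 (0.933%) passed when the control arrays were also fitted, 42 (0.356%) higher with 381 and 68 (0.577%) higher with 1012, and 58 of the 59 were among them. In that fit, which needs the controls for its spread once an array is missing, leaving out 1 array gave 123 genes without 381 in Jurkat, 235 without 1012 in Jurkat, 102 without 381 in K562 and 63 without 1012 in K562 cells.

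A rule of size gave a similar count. In both lines, 22 genes (0.187%) were at least 2-fold higher with hairpin 381 and 32 (0.272%) at least 2-fold higher with hairpin 1012, 54 together (0.458%), and 31 of these were also among the 59 called. In a single line, 363 genes (3.08%) were at least 2-fold apart in Jurkat and 602 (5.11%) in K562 cells. Opposite 2-fold differences in the 2 lines were found for 14 genes (0.119%). Over all genes the differences of the 2 lines had r = 0.215 and Spearman's rho = 0.241 (11785 genes, which are not independent), and 60.6% of genes had the same sign. Whether the arrays of a line were processed together is not known here, and no replicate of a hairpin within a line was measured.

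**Figure D1:**
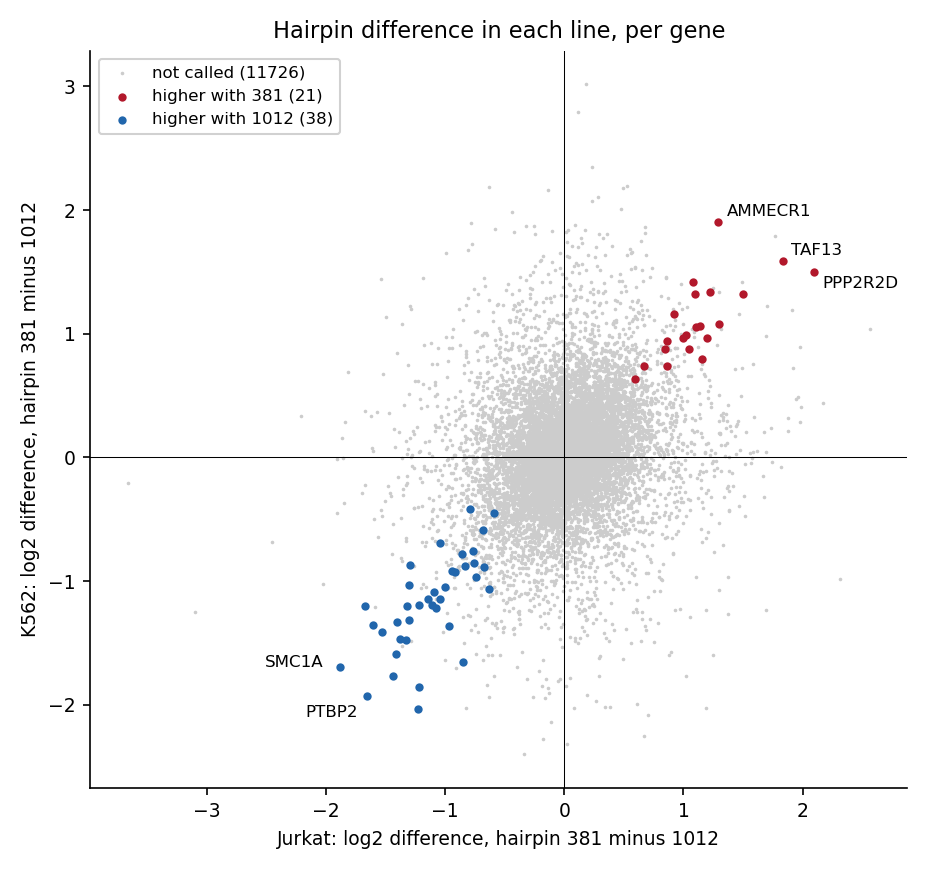
Log2 difference between the hairpins (381 minus 1012) of each gene in Jurkat cells (x axis) and in K562 cells (y axis). Grey points are the genes that did not pass limma's test, red points the 21 called genes higher with 381 and blue points the 38 called genes higher with 1012, all of which lie in the quadrants where the lines share a sign.

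Genes lower with hairpin 381 led the list by p. SMC1A, a core subunit of the cohesin ring that holds sister chromatids together, had signals of 7161 in the control, 2009 with 381 and 7447 with 1012 in Jurkat cells, and of 9391, 2942 and 9540 in K562 cells. Both 1012 arrays lay beside their controls and both 381 arrays lay far below. The difference was 3.45-fold (log2 -1.79 ± 0.12 SE, limma adjusted p = 0.00553), the smallest p of the table. The endoplasmic reticulum chaperone ERP29 showed the same arrangement, at 3590, 1381 and 4008 in Jurkat and 5360, 2559 and 6847 in K562 cells (control, 381 and 1012), a 2.77-fold difference (log2 -1.47 ± 0.13, adjusted p = 0.0114 in limma). PAFAH1B2, a catalytic subunit of an acetylhydrolase that inactivates platelet-activating factor, read 4093, 1506 and 4024 in Jurkat and 5981, 2281 and 5763 in K562 cells (2.58-fold, limma adjusted p = 0.0132). In each of these genes the 2 arrays of 381 were the 2 lowest of all 6. The genes were picked by their small p between the hairpins, which favours such an arrangement. Its share over all genes was not counted.

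Several further genes had the lowest level of their line on both 381 arrays. FAM8A1, a membrane protein of the machinery that degrades proteins of the endoplasmic reticulum, read 801 with 381 against 2316 in the control and 2160 with 1012 in Jurkat cells, and 848 against 2782 and 2583 in K562 cells (2.83-fold, limma adjusted p = 0.0132). DYNLT1, a light chain of the dynein motor, read 1578 with 381 against 4439 in the control and 5069 with 1012 in Jurkat cells, and 4042 against 7942 and 9329 in K562 cells (2.71-fold, limma adjusted p = 0.0132). MMD, a membrane protein named for its rise during macrophage maturation, was 3.03-fold lower with 381, at 2007 against 5461 in Jurkat and 451 against 1574 in K562 cells. The level of MMD in the controls was 5092 and 1004, between the hairpins in both lines. NUSAP1, a protein of the mitotic spindle, differed less (1.90-fold, log2 -0.92 ± 0.10, limma adjusted p = 0.0132), with 5154 and 5570 on the 381 arrays and 8786 to 10621 on the other 4. The Golgi golgin TMF1, the mitochondrial fission regulator MTFR1, the transcriptional corepressor NAB1 and FRMD8, a partner of the iRhom proteins, were 2.22-fold, 2.21-fold, 2.64-fold and 2.31-fold lower with 381, with adjusted p-values between 0.0162 and 0.0207 in limma.

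Genes lower with hairpin 1012 formed the other main group. TAF13, a subunit of the general transcription factor TFIID, had signals of 3579 in the control, 5231 with 381 and 1452 with 1012 in Jurkat cells, and of 8132, 7935 and 2633 in K562 cells. It was 3.27-fold lower with 1012 (log2 1.71 ± 0.14, limma adjusted p = 0.00777). MAT2B, the regulatory subunit of the enzyme that makes S-adenosylmethionine, read 6753, 6514 and 3075 in Jurkat and 6408, 6002 and 2233 in K562 cells in the same order (2.38-fold, limma adjusted p = 0.0132). The 381 arrays of MAT2B lay next to their controls, and the 1012 arrays lay below control. EPS15, an adaptor of clathrin-mediated endocytosis, read 2606, 2277 and 966 in Jurkat and 4619, 4981 and 1964 in K562 cells (2.43-fold, limma adjusted p = 0.0141). NUP43, a subunit of the nuclear pore scaffold, read 8984, 9141 and 4808 in Jurkat and 14127, 13372 and 5980 in K562 cells (2.06-fold, limma adjusted p = 0.0132).

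The same arrangement held for genes of several other functions. AMMECR1, an X-linked gene, was 3.03-fold lower with 1012, at 918 against 2270 with 381 in Jurkat and 2133 against 8027 in K562 cells, with controls of 1792 and 9170. SLC40A1, the iron exporter ferroportin, was 2.31-fold lower with 1012, at 2151 against 4630 in Jurkat and 1288 against 3235 in K562 cells (limma adjusted p = 0.0165). SELENOT, a selenoprotein of the endoplasmic reticulum, was 2.66-fold apart, and its controls of 2787 and 1999 lay between the hairpins in both lines, so it was above control with 381 and below it with 1012. Mitochondrial proteins among these genes were TOMM20, a receptor for protein import, MRPL35, a mitochondrial ribosomal protein, and NDUFS1, the largest subunit of respiratory complex I. They were 1.63-fold, 2.12-fold and 1.97-fold lower with 1012, with adjusted p-values of 0.0141, 0.0223 and 0.0304 in limma. Called genes of mitochondrial proteins also went the other way. MTFR1, GRPEL2 and ATP5F1E were 2.21-fold, 2.12-fold and 1.52-fold lower with 381. PPP2R2D, a regulatory subunit of protein phosphatase 2A, had the largest mean difference of the called genes, 3.48-fold, at a low level of 145 and 156 with 1012 against 675 and 473 with 381 (limma adjusted p = 0.0302).

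A smaller set was above control with hairpin 1012. PTBP2, a splicing regulator best known from neurons, had signals of 1667 in the control, 1327 with 381 and 4207 with 1012 in Jurkat cells, and of 848, 809 and 3129 in K562 cells. The 1012 arrays were the highest of each line and the 381 arrays lay near control. The difference was 3.46-fold (log2 -1.79 ± 0.16, limma adjusted p = 0.0114). MAP3K20, a stress-activated protein kinase, read 2750, 2266 and 5689 in Jurkat and 1497, 1328 and 3068 in K562 cells (2.39-fold, adjusted p = 0.0132 in limma). Other MAP3K20 probe sets did not all rise with 1012. CLIC4, an intracellular chloride channel protein, was above control with 1012 and below it with 381, at 3820, 2341 and 5459 in Jurkat and 3481, 2084 and 7576 in K562 cells (2.90-fold, limma adjusted p = 0.0132). PHGDH, the first enzyme of serine synthesis, read 1366, 677 and 1788 in Jurkat and 381, 370 and 1052 in K562 cells. With 381 PHGDH was below control in Jurkat cells and at control in K562 cells, and with 1012 it was above control in both (2.68-fold between hairpins, limma adjusted p = 0.0207).

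**Figure D2:**
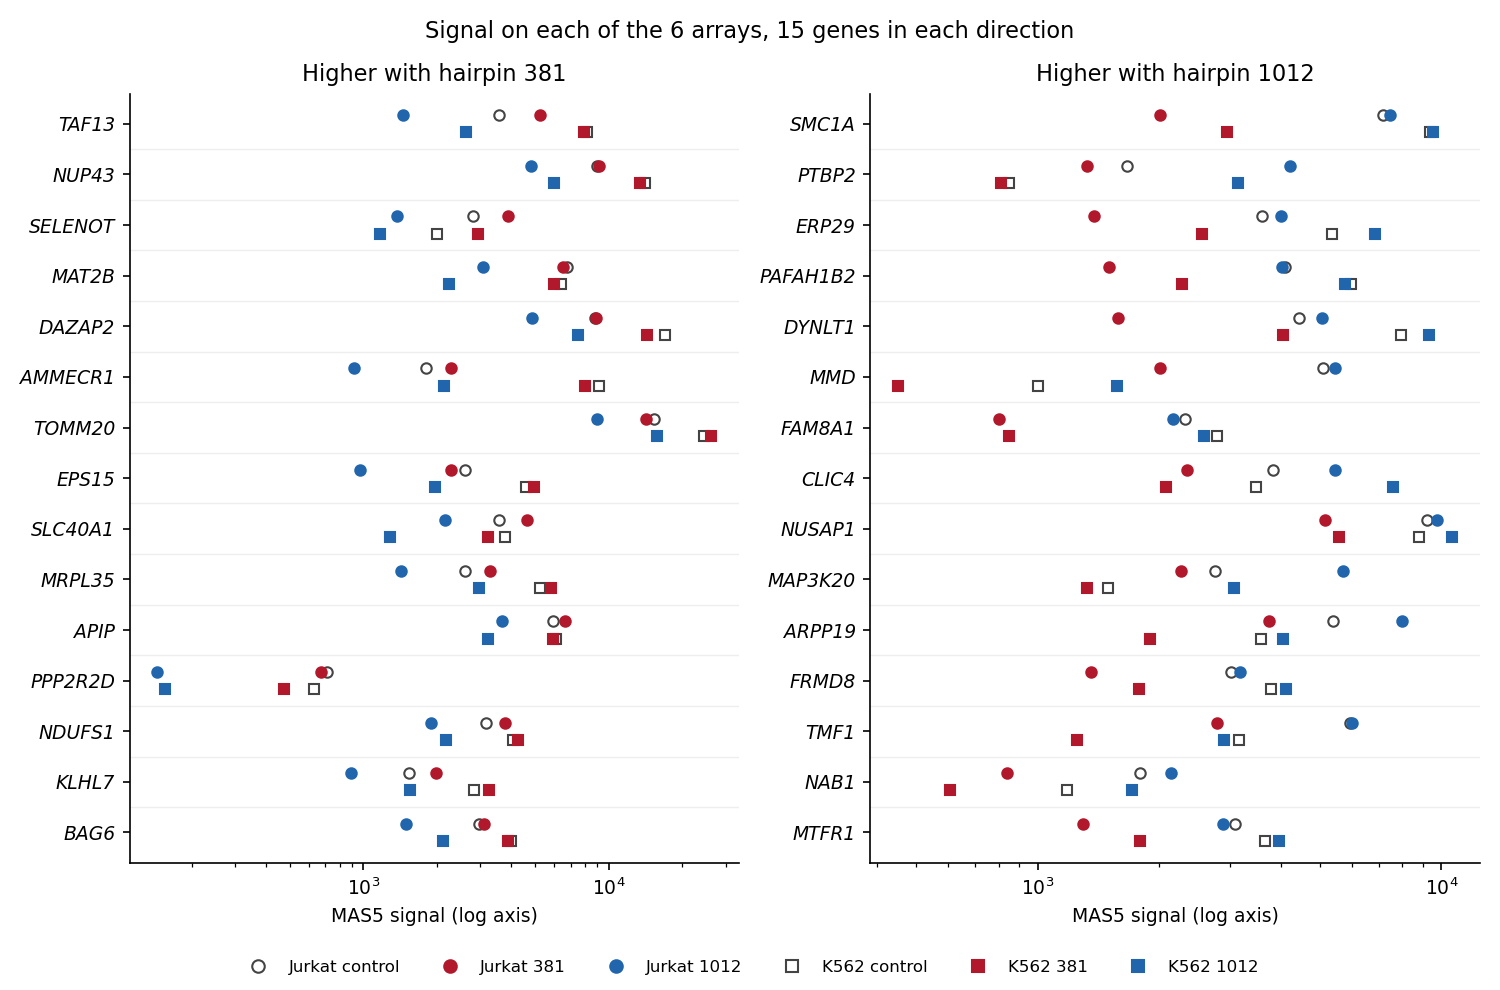
Deposited MAS5 signal (x axis, logarithmic) on each of the 6 arrays for the 15 genes with the smallest p in each direction. Circles are Jurkat and squares K562 arrays, open symbols are controls, red symbols hairpin 381 and blue symbols hairpin 1012. In the left panel the blue symbols lie below the other 2 of their line, and in the right panel the red symbols do.

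Set against control, the called genes were mostly displaced downward by 1 hairpin. In 44 of the 59 the hairpin with the lower level was the one farther from control in both lines, in 4 the hairpin with the higher level was, and in 11 the lines differed. Over the 7146 genes with the same direction in both lines these shares were 33.9%, 26.4% and 39.8%, against 74.6%, 6.78% and 18.6% of the called genes. Among the 21 genes higher with 381, hairpin 1012 was farther from control in both lines in 19, with a median log2 difference to control of -0.90 in Jurkat and -0.92 in K562 cells, and hairpin 381 had medians of 0.11 and -0.02. Among the 38 genes higher with 1012, hairpin 381 was farther below control in 25, with medians of -0.80 and -0.81, and hairpin 1012 had medians of 0.17 and 0.27. Both hairpins of a line were set against the same single control array, so these distances are a description without a test.

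Under a stricter rule, 1 hairpin was at least 2-fold from control in the same direction in both lines and the other was within 0.5 log2 units of it. Of the 54 genes 2-fold apart in both lines, 22 met it. In 12, hairpin 381 was the one below control: SMC1A, ERP29, PAFAH1B2, FAM8A1, FRMD8, TMF1, MTFR1, SUMO4, NETO2, RHNO1, PIK3C2A and ACTG2. In 7, hairpin 1012 was below control: MAT2B, EPS15, PPP2R2D, TMEM109, CNP, APOC1 and RUSC2. In 3, hairpin 1012 was above control: PTBP2, MAP3K20 and MRAP2, each on its brightest probe set. No gene was above control with hairpin 381 by this rule. The remaining 32 genes met none of these conditions. APOC1 and MRAP2 were near background in Jurkat cells, with signals from 8.03 to 44.7 and from 1.57 to 28.3, so their Jurkat values depend on the constant added before the logarithm. The same holds for ACTG2, which read 6.88 with 381 in K562 cells, and for RUSC2, which read 12.9 and 34.7 with 1012. SUMO4 resembles its paralog SUMO2 in sequence, and its probe set may read both. A second NETO2 probe set was not below control with 381, at 3958 against 3876 in Jurkat and 1493 against 1154 in K562 cells. A second RHNO1 probe set was near control with 381 in Jurkat cells, at 1002 against 1014. In K562 cells it was below control, at 344 against 500. Another FRMD8 probe set was above control with 381, at 333 against 229 in Jurkat and 224 against 164 in K562 cells. The remaining FRMD8 probe sets were not. Some TMF1 probe sets were near control with 381 in Jurkat cells, at 1058 against 1096 and 413 against 414, and below it in K562 cells. The other PPP2R2D probe set was above control with 1012 in K562 cells, at 243 against 197. In Jurkat cells it was below control, at 273 against 352.

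**Figure D3:**
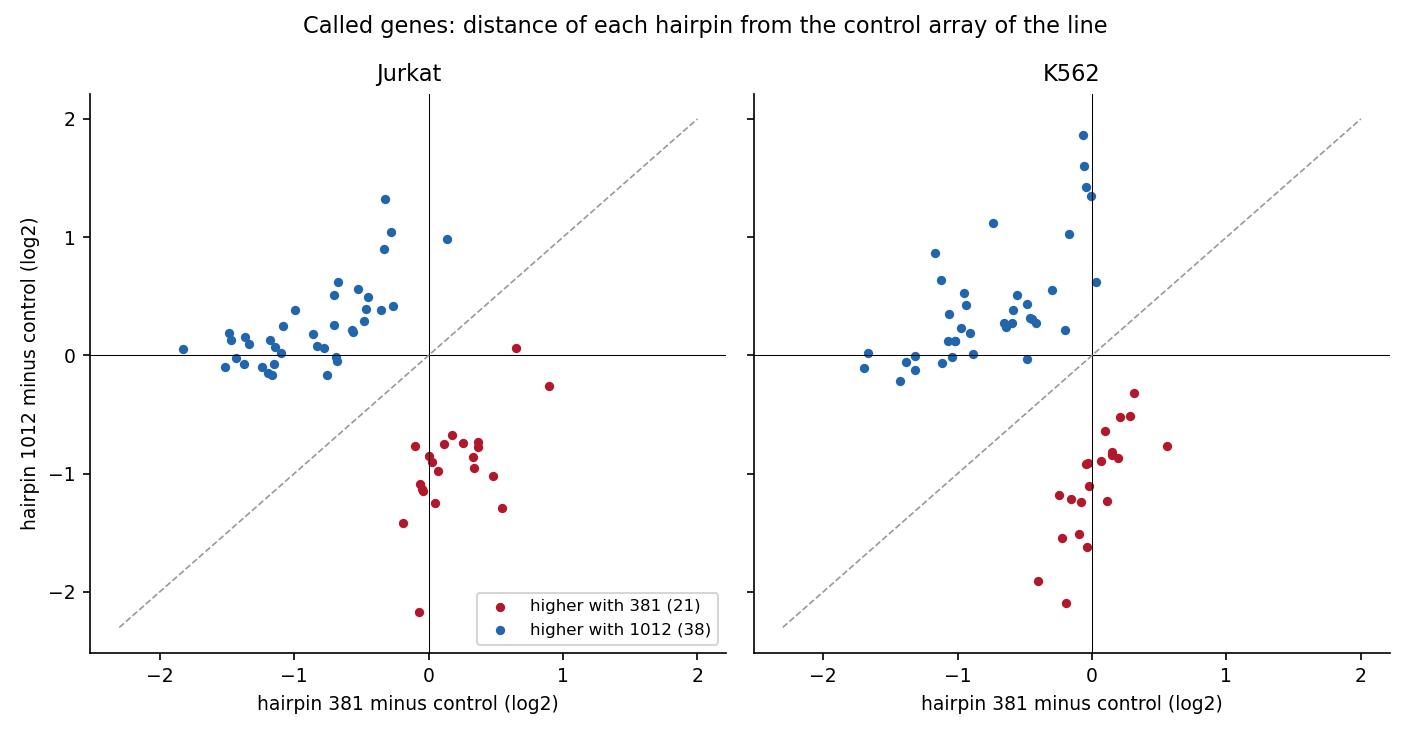
Log2 difference to the control array of the line with hairpin 381 (x axis) and with hairpin 1012 (y axis) for the 59 called genes, in Jurkat (left) and K562 cells (right). Red points are genes higher with 381 and blue points genes higher with 1012, and on the dashed line both hairpins would be equal. Most red points lie below 0 on the y axis and near 0 on the x axis, and most blue points lie left of 0 on the x axis.

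Other probe sets of a gene gave a second reading from the same arrays. Of the 30 genes made up of the 15 with the smallest p in each direction, 25 had another probe set above the filter. In 16 all of these differed in the same direction as the brightest one in both lines, in 6 some did, and in 3, PPP2R2D, PAFAH1B2 and FRMD8, none did. Over all called genes 66 of 95 other probe sets (69.5%) had the same direction in both lines, against 46.6% of 6742 over all genes with the same direction. All 4 other NDUFS1 probe sets followed the brightest, and a second AMMECR1 probe set had differences of 1.40 and 2.19, larger than the 1.29 and 1.90 of the brightest. The second PTBP2 probe set was dim, at 306 and 252 with 1012 against 85 and 98 with 381, and differed the same way. ARPP19, an inhibitor of protein phosphatase 2A in mitosis, gave contradictory readings: the brightest probe set was 2.13-fold lower with 381 (limma adjusted p = 0.0141), and another of similar signal was higher with 381 by 0.47 and 0.49 log2 units. FRMD8 lost its difference when its probe sets were averaged, at a log2 value of 0.023. MAP3K20 was split: 4 of its 6 other probe sets followed the brightest in both lines, while others fell below control with 1012. A dimmer probe set read 787 in the control and 436 with 1012 in Jurkat, and 1398 and 694 in K562 cells. Another read 330 and 200 in Jurkat, and 559 and 371 in K562 cells.

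Gene lists were described by their counts and medians beside those of all genes, of which 33.5% were higher with 381 in both lines and 27.1% higher with 1012, with a median log2 difference of 0.03. The list with the most negative median over the mean of the lines, -0.44, was amino acid synthesis and transport, while in K562 cells alone the ATF4 list described after it was slightly lower. Of its 18 genes, 16 were higher with 1012 in both lines and 1 was higher with 381. The list's median difference was -0.41 in Jurkat and -0.48 in K562 cells. Only PHGDH passed limma's test over all genes (1 of 18, against 0.322% of all genes in this direction), and 10 of 18 were higher with 1012 at an unadjusted p under 0.05 (6.16% of all genes). Against control the list's median was -0.29 with 381 and 0.04 with 1012 in Jurkat, and 0.04 with 381 and 0.55 with 1012 in K562 cells. The hairpin that lay away from control was thus 381 in Jurkat and 1012 in K562 cells.

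Its members cover both synthesis and uptake. ASNS, asparagine synthetase, read 2607 in the control, 1338 with 381 and 4091 with 1012 in Jurkat cells, against 12276, 13370 and 18851 in the K562 line (log2 -1.05 ± 0.22, limma adjusted p = 0.103). SLC7A11, the cystine importer, read 872, 607 and 977 in Jurkat and 2119, 2103 and 3989 in K562 cells (log2 -0.79 ± 0.16, adjusted p = 0.101 in limma). The serine synthesis enzyme PSPH had a log2 difference of -0.68 ± 0.16, and the neutral amino acid transporters SLC1A4 and SLC38A2 had -0.78 ± 0.19 and -0.36 ± 0.08, with adjusted p-values of 0.128 to 0.137 in limma. None of these 5 passed over all genes, while in each the 1012 array was above the 381 array in both lines.

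Genes of ATF4 and of the unfolded protein response were split in direction. ATF4 is a transcription factor that is made when amino acids run short or proteins misfold, and it drives genes of amino acid supply. Of 27 genes, 14 were higher with 1012 and 5 higher with 381 in both lines, and the median difference was -0.17 in Jurkat and -0.50 in K562 cells. No gene of the list passed limma's test over all genes, and 14 were higher with 1012 (6.16% of all genes) and 2 higher with 381 (7.31%) at an unadjusted p under 0.05. ATF4 itself read 21548 with 381 and 25786 with 1012 in Jurkat and 14991 and 18924 in K562 cells (log2 -0.30 ± 0.07, limma adjusted p = 0.150). Its known targets TRIB3 and CHAC1 had -0.96 ± 0.19 and -1.22 ± 0.28, and VEGFA and DDIT4, which other stresses also induce, had -0.92 ± 0.16 and -0.73 ± 0.14 (adjusted p from 0.0719 to 0.128 in limma). The 5 genes higher with 381 in both lines were the sensor ATF6 and 4 chaperones or folding factors of the endoplasmic reticulum, HSPA5, PDIA4, SDF2L1 (0.39 ± 0.11) and DNAJC3 (0.42 ± 0.18).

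Among 17 aminoacyl-tRNA synthetases, which charge transfer RNAs with amino acids and include known ATF4 targets, 7 (41.2%, against 27.1% of all genes) were higher with 1012 and 5 (29.4%, against 33.5%) higher with 381 in both lines. The median difference was -0.02 in Jurkat and -0.06 in K562 cells. No synthetase passed limma's test over all genes, and 5 were higher with 1012 (6.16% of all genes) and 1, FARSA, higher with 381 (7.31%) at an unadjusted p under 0.05. AARS1 had -0.51 ± 0.13 and TARS1 -0.32 ± 0.09. The poly-A spike-ins, whose log2 medians against control were 0.08 with 381 and 0.45 with 1012 in Jurkat and 0.34 and 0.69 in K562 cells, moved in the same direction as these 3 lists, and their part in the result was not tested.

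**Figure D4:**
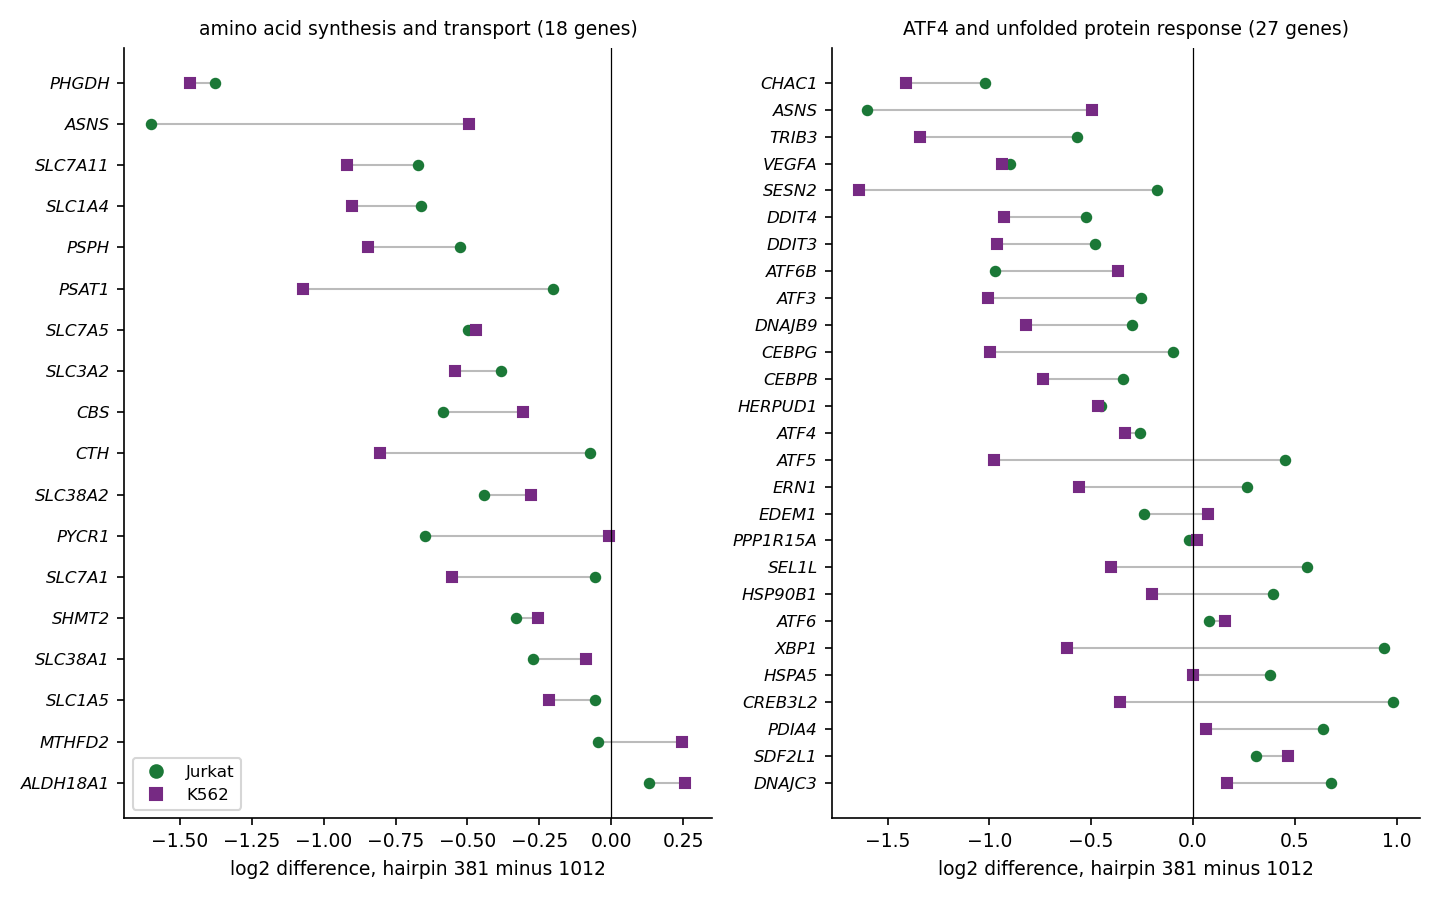
Log2 difference between the hairpins (381 minus 1012, x axis) for each measured gene of the amino acid list (left, 18 genes) and of the ATF4 and unfolded protein response list (right, 27 genes). Green circles are Jurkat and purple squares K562 cells, joined by a grey line. In the left panel 16 genes have both symbols left of 0, and in the right panel 14 do.

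Promoters were searched for TGATGNAA on both strands, the core of the element bound by ATF4 with C/EBP proteins, within 250 bases before to 50 bases after the start in RefSeq's GRCh38.p14 annotation. It was present in 4 of 14 amino acid genes with a promoter sequence (28.6%), 4 of 26 ATF4 and unfolded protein response genes (15.4%) and 5 of 14 synthetases (35.7%), against 1.78% of the genes tested (171 of 9626), and in 0 of 19 ribosome biogenesis genes. It was present in 1 of 18 promoters of called genes higher with 381 and in 0 of 35 of those higher with 1012. The lists hold known ATF4 targets, so the element's share in them is a property of the lists. The 6 windows of these lists in which the match lies wholly before the start are shown so that the element can be seen in genes with different values between the hairpins, none of which passed limma's test over all genes, with the match in capitals and each sequence 5′ to 3′ on the gene's strand. They lie at chr16:70289660-70289719 (AARS1, minus strand), chr7:97872443-97872502 (ASNS, minus), chr1:212565190-212565249 (ATF3, plus), chr15:40953236-40953295 (CHAC1, plus), chr16:56931940-56931999 (HERPUD1, plus) and chr9:92293698-92293757 (IARS1, minus).
AARS1: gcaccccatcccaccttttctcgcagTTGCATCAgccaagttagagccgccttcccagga
ASNS: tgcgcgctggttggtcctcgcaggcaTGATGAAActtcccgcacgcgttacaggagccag
ATF3: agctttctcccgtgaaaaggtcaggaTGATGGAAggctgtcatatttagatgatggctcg
CHAC1: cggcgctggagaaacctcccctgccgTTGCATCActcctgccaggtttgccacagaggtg
HERPUD1: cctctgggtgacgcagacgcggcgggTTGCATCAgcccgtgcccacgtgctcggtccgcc
IARS1: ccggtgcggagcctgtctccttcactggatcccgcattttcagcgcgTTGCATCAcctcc
The match begins 187 bases before the start in AARS1, 68 in ASNS and 209 in CHAC1. The log2 differences of ATF3 and HERPUD1 were -0.63 ± 0.22 and -0.46 ± 0.13 (limma adjusted p = 0.277 and 0.201), whereas IARS1, the isoleucyl-tRNA synthetase, had 0.01 ± 0.08 with the element 13 bases before its start. A match is a description of the letters, and binding was not measured. The AGGCCT core of the ZFX motif, also sought on both strands, was present in 1061 of 9626 promoters of the genes tested, in 1 of 18 (5.56%) of the called genes higher with 381 and in 2 of 35 (5.71%) of those higher with 1012.

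Lists with more genes higher with hairpin 381 included the interferon response, sterol synthesis and the ribosome. Of 24 type I interferon response genes, 12 were higher with 381 and 1 higher with 1012 in both lines, and the median difference was 0.39 in Jurkat and 0.38 in K562 cells. The median of the genes' mean differences was lower, at 0.21, and 11 of the 24 genes differed in sign between the lines. No gene of the list passed limma's test over all genes, and 6 were higher with 381 at an unadjusted p under 0.05 (7.31% of all genes). ISG15, a ubiquitin-like protein induced by interferon, read 3443 in the control, 3977 with 381 and 2658 with 1012 in Jurkat cells, against 1118, 1525 and 745 in the K562 line. ISG15 was thus above control with 381 and below it with 1012 in both lines, by 0.80 ± 0.17 between the hairpins (limma adjusted p = 0.103). IFI44, also interferon-induced, read 479 with 381 and 160 with 1012 in Jurkat cells against 102 in the control, and was dim in K562 cells at 31.0 and 0.926.

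Of 23 genes of cholesterol and fatty acid synthesis, 12 were higher with 381 and 4 higher with 1012 in both lines, with medians of 0.35 in Jurkat and 0.12 in K562 cells. None passed limma's test over all genes, and 7 were higher with 381 (7.31% of all genes) and 0 higher with 1012 (6.16%) at an unadjusted p under 0.05. SQLE, squalene epoxidase, read 7655, 9933 and 5975 in Jurkat and 9049, 10392 and 7424 in K562 cells for control, 381 and 1012 (log2 0.61 ± 0.11, adjusted p = 0.0695 in limma). HMGCS1, which makes the precursor of mevalonate, had 0.73 ± 0.15 and the sterol oxidase MSMO1 0.52 ± 0.10. SQLE and ISG15 had the order 381, control, 1012 in both lines.

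Ribosome genes had small differences, mostly of 1 sign, and none passed limma's test over all genes. Of 24 ribosome biogenesis genes, 18 were higher with 381 and 1 higher with 1012 in both lines, with medians of 0.17 and 0.29, and 7 were higher with 381 (7.31% of all genes) and 0 higher with 1012 at an unadjusted p under 0.05, while limma passed 0 over all genes. The nucleolar protein PES1 had 0.71 ± 0.20 and RRP9, of the U3 small nucleolar particle, 0.94 ± 0.31. Of 50 cytosolic ribosomal protein genes, 43 were higher with 381 and 0 higher with 1012 in both lines, but the medians were 0.08 and 0.09, close to the 0.02 and 0.03 of all genes, and 1 of the 50 was higher with 381 at an unadjusted p under 0.05 (7.31% of all genes). The median kept its sign under every alternative tried, at 0.014 at the lowest. Of 39 nuclear-encoded respiratory chain genes, 26 were higher with 381 and 2 higher with 1012, with medians of 0.08 and 0.17, and NDUFS1 passed (1 of 39, against 0.178% of all genes in this direction). ATP5F1E, an ATP synthase gene that the list left out, passed in the other direction (log2 -0.60 ± 0.09, limma adjusted p = 0.0476). Heat shock proteins and chaperonins had 15 of 20 genes higher with 381 and 3 higher with 1012, with medians of 0.08 and 0.14, and HSPH1 had 0.51 ± 0.11 (limma adjusted p = 0.101).

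**Figure D5:**
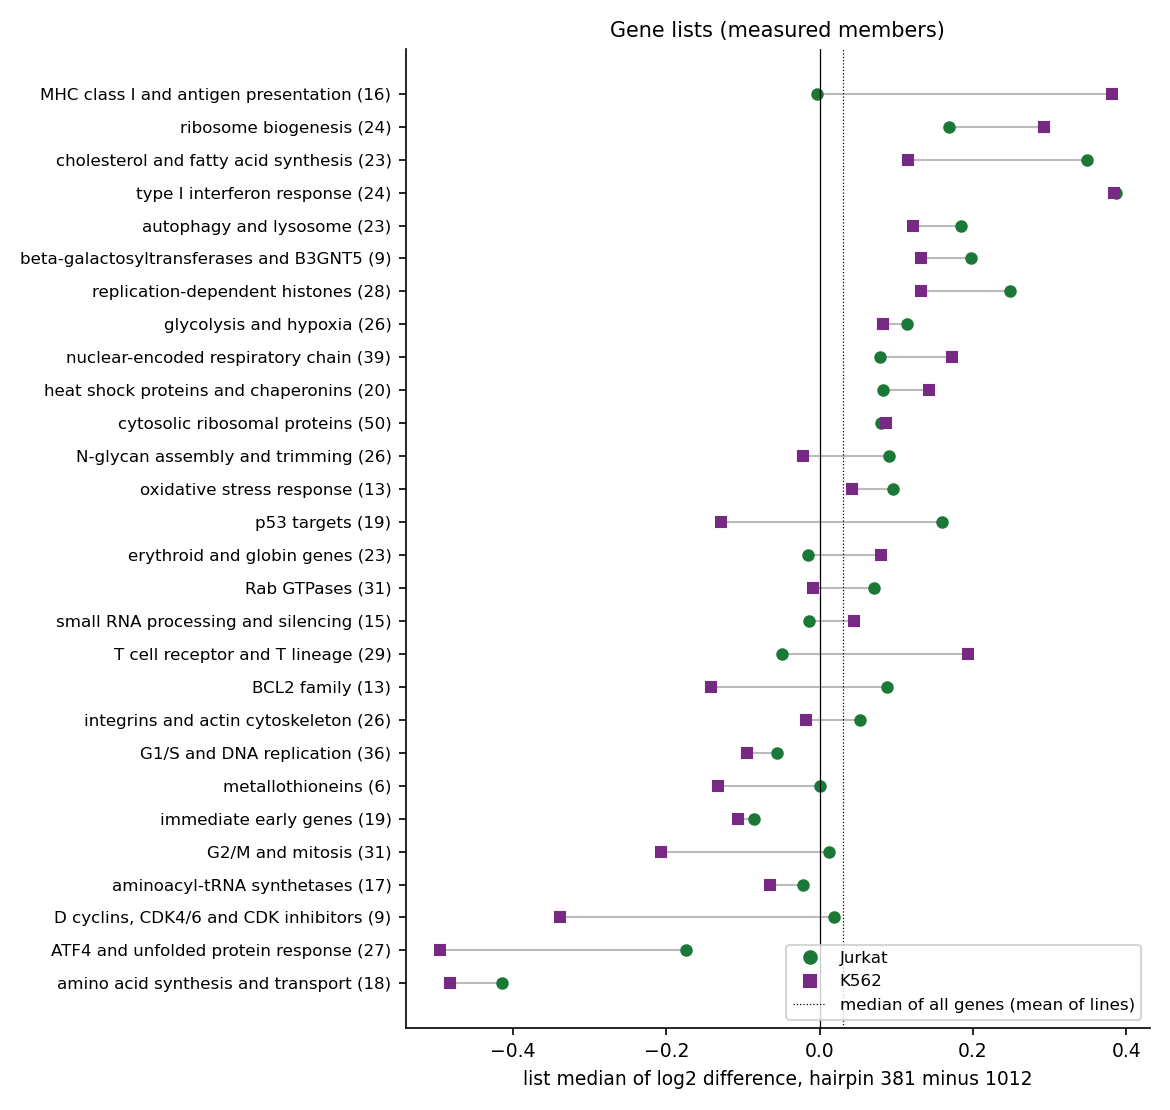
Median log2 difference between the hairpins (381 minus 1012, x axis) over the measured genes of each of the 28 lists, in Jurkat (green circles) and K562 cells (purple squares), with the number of genes in brackets and the median of all genes as a dotted line. The amino acid list lies at -0.41 and -0.48 and the interferon list at 0.39 and 0.38, and several lists have their lines on opposite sides of 0.

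Of the cell cycle lists, G2/M held 1 called gene and G1/S 0. Of 31 G2/M and mitosis genes, 12 were higher with 1012 and 3 higher with 381 in both lines, the medians were 0.01 and -0.21, and NUSAP1 passed (1 of 31, against 0.322% of all genes in this direction). At an unadjusted p under 0.05, 4 of the 31 were higher with 1012 (6.16% of all genes) and 0 higher with 381 (7.31%). KIF11, a spindle motor, had -0.82 ± 0.15 (limma adjusted p = 0.0720), at 2788 with 381 against 4573 with 1012 in Jurkat and 1107 against 2120 in K562 cells. Of 36 G1/S and DNA replication genes, 16 were higher with 1012 and 7 higher with 381, with medians of -0.05 and -0.09. At an unadjusted p under 0.05 limma gave 3 higher with 1012 (6.16% of all genes) and 2 higher with 381 (7.31%). The E cyclins, partners of CDK2 at the start of replication, differed in opposite directions, CCNE1 by 0.88 ± 0.18 and CCNE2 by -0.76 ± 0.22, and neither passed over all genes in limma (adjusted p = 0.0966 and 0.205). Of 15 genes of small RNA processing and silencing, on which both hairpins depend, 3 were higher with 381 and 3 higher with 1012 in both lines, and the median was -0.01 in Jurkat and 0.04 in K562 cells.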

How the data were processed

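Expression was read from 6 Affymetrix arrays of 1 colour, each with 54675 probe sets. The values that the authors deposited are linear intensities, computed by MAS5 according to the submitters' processing notes. Its version and settings were not given in the sources used here. From them log2(signal + 17) was computed here, a scale on which the changes of dim genes are understated. The 62 array controls and probe sets with a mean at or below the median (a signal of 54.4) were left out. Of 27306 probe sets kept, 22311 had 1 gene symbol in the platform annotation, and 41043 of all probe sets matched RefSeq by Entrez identifier. Each gene took its probe set with the highest mean, giving 11785 genes. The 4 silenced arrays were fitted with limma 3.58.1 in R 4.3.3, with the hairpin as factor, the cell line as block (the pairing comes from the line) and an intensity trend. P-values are two-sided, adjusted by Benjamini-Hochberg over all genes. The fit was tested on simulated data. The genes named were ZFX, the 15 of smallest p in each direction, up to 6 of each class and list, and all of counts up to 5. SDF2L1, DNAJC3, the genes whose promoters are shown and further genes of a class were named after their values were seen. The members and the 28 gene lists were chosen with earlier results of these data known. Alternatives were other pseudocounts, filters, probe set rules, normalizations and fits, and each silenced array left out in a fit with the controls.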

Additional observations from a re-analysis of the deposited data

Results flagged for a closer look

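Genes at least 2-fold apart in opposite directions in the 2 lines drew attention because each line moved the other way, and the difference between the lines was not tested, since 1 array per hairpin and line leaves no residual degrees of freedom for it. The 6 with the largest differences on their weaker side are given as the K562 difference minus the Jurkat difference, each difference being 381 minus 1012 on the log2 scale. KIT, the stem cell factor receptor, had 2.98, with signals of 119 with 381 and 378 with 1012 in Jurkat cells, against 74.2 and 16.5 in the K562 line. SOX6, a transcription factor of erythroid maturation, had -2.92, at 446 with 381 and 1072 with 1012 in K562 cells and 60.5 and 6.98 in Jurkat cells. PLAC8 had -2.84, at 4560 with 381 and 1915 with 1012 in Jurkat cells, against 1.68 and 39.4 in the K562 line. ERBB3, a receptor tyrosine kinase, had -2.64, and its chosen probe set had no signal above 128 on any array. The protease gene ADAMTS17 had 2.51 and TRIM7 2.49. Other probe sets of these genes did not all follow: a second ADAMTS17 probe set was lower with 381 in both lines, at log2 differences of -1.20 and -0.52, and a dim ERBB3 probe set was higher with 381 in both, by 0.37 and 0.32. On the chosen probe set each of these 6 was below a signal of 128 in at least 1 line on the arrays of both hairpins.

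The poly-A spike-in probe sets, which belong to no comparison of genes, were above their control arrays with hairpin 1012, by a median log2 value of 0.45 in Jurkat and 0.69 in K562 cells.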

How the results depend on the processing

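For hairpin 381 against hairpin 1012 the number of genes called, 59, depended on the fit and the filter. It was 110 when the control arrays were fitted too, 36 with a pseudocount of 4 and 197 with 68, 269 with a filter at the 75th percentile, 42 without a filter, 115 with every probe set on its own, 31 after quantile normalization and 36 after cyclic loess. It was 0 without the replicate block, that is without pairing by cell line (49 genes at an unadjusted p under 0.05), 0 with the mean of probe sets (1284), 0 with median centring (1448, smallest adjusted p 0.0555 in limma) and 0 without an intensity trend (1197). Leaving out 1 silenced array, in the fit with controls that gave 110, gave 63 to 235 genes, and the lone array of a line was assumed to vary like the others. Of the called genes 64.4% were higher with 1012, against 71.0% after quantile normalization, 61.8% with the controls fitted, 61.1% with a pseudocount of 4 and 55.8% with 68, and 48.1% to 62.6% with 1 array left out. Genes 2-fold apart in both lines, 54, numbered 28 with a pseudocount of 68, 166 without a filter, 31 with the stricter filter, 30 with the mean of probe sets and 93 with every probe set. Those apart in opposite directions, 14, numbered 25 and 1 with pseudocounts of 4 and 68, 124 without and 1 with the stricter filter and 23 with every probe set. Genes where 1 hairpin departed, 22, numbered 41 without a filter and 10 with the mean of probe sets. ZFX, 0.55, ranged from -0.11 to 1.22 as 1 array was left out, and FRMD8 turned from -1.21 to 0.023 with the mean of probe sets. The other 29 of the 30 genes, 15 with the smallest p in each direction, kept their direction under all 16 alternatives. The medians of the genes' mean differences in the amino acid list (-0.56 to -0.32), the ATF4 list (-0.49 to -0.05) and the interferon list (0.16 to 0.35) kept their sign under all 16. The array values carry no depth, and 1 array per hairpin and line limits the precision.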

Other observations

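In the remaining lists limma called 0 genes, and each list held 0 to 5 genes per direction at an unadjusted p under 0.05. At that threshold 7.31% of all genes were higher with 381 and 6.16% higher with 1012. The counts that follow are of genes with the same direction in both lines. Autophagy and lysosome genes had 12 of 23 higher with 381 and 4 higher with 1012, with medians of 0.18 in Jurkat and 0.12 in K562 cells, and 5 and 3 at an unadjusted p under 0.05. ATP6V1A, a subunit of the proton pump that acidifies lysosomes, had 0.62 ± 0.12 (limma adjusted p = 0.0964), and GABARAPL1, a protein of autophagosomes, had -0.85 ± 0.23. Replication-dependent histones had 14 of 28 higher with 381 and 5 higher with 1012, and glycolysis and hypoxia genes 13 and 5 of 26. Immediate early genes had 9 of 19 higher with 1012 and 3 higher with 381, with medians of -0.09 and -0.11.

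The MHC class I list had a median near 0 in Jurkat cells and of 0.38 in K562 cells, where PSMB9, an immunoproteasome subunit, read 359 with 381 and 117 with 1012 against 94.0 in the control. The D cyclin and CDK inhibitor list had medians of 0.02 and -0.34, and the BCL2 family 0.09 and -0.14, with PMAIP1, a BH3-only death gene, at -0.82 ± 0.16 (limma adjusted p = 0.0936). Of 19 p53 targets 7 were higher with 381 and 5 with 1012, of 13 oxidative stress genes 5 and 3, of 6 metallothioneins 0 and 3, and of 9 genes of the beta-galactosyltransferase list 6 and 3. Rab GTPases (9 and 8 of 31), N-glycan genes (9 and 7 of 26), integrins and actin genes (9 and 8 of 26) and T lineage genes (7 and 6 of 29) are given as genes higher with 381 and with 1012, where all genes had 33.5% and 27.1%. Of 23 erythroid genes 8 were higher with 381 and 4 with 1012, and at an unadjusted p under 0.05 limma gave 5 higher with 381 (7.31% of all genes) and 0 higher with 1012.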
